A study of Mus musculus with 6 samples.

Results

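The transcripts described here are those of the 5 NF-kB subunits (Nfkb1, Nfkb2, Rel, Rela and Relb) and of 5 members of the I-kappa-B family of inhibitors (Nfkbia, Nfkbib, Nfkbid, Nfkbie and Nfkbiz). They were found by gene symbol in a table of 55335 genes, where each of the 10 symbols has 1 row. The samples are primary mouse macrophages that were differentiated from bone marrow in 20 ng/mL of macrophage colony-stimulating factor. On day 5 all of them received PAC-CM, a medium conditioned by injured acinar cells, the enzyme-secreting cells of pancreas. For 3 samples the medium held kinsenoside, a glycoside from orchids, at 400 µM, and for the other 3 it held none, with 1 library for each sample. No library comes from macrophages without the conditioned medium, and only what kinsenoside adds to the medium can be read. The labels name no mouse strain, sex or age, nor whether each replicate is its own animal or culture. The spread behind the p-values may thus be technical.

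NF-kB is a family of transcription factors that act as dimers and switch on inflammatory genes in macrophages after Toll-like receptor, interleukin-1 or tumour necrosis factor signals. In resting cells the classical I-kappa-B proteins hold the dimers in the cytosol, and a kinase complex marks these inhibitors for destruction when a signal arrives. Several inhibitor and subunit genes are themselves NF-kB targets, so the transcripts of the system take part in its feedback. Transcript levels do not measure the location or activity of the proteins.

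Promoters of the members were searched because NF-kB sites in the promoters of target genes are the known route of that feedback. RefSeq promoter sequences of build GRCm38.p6, from 250 bases before to 50 bases after the annotated start of transcription, matched 7 of the 10 members by symbol, with 11 promoters in all. Nfkb1, Relb and Nfkbiz are the other members. A search on both strands for GGG, any 2 bases and TTTCC found this motif in 5 of the 11 promoters, against 1.63% of 32851 mouse promoters of the same length. The more degenerate NF-kB consensus motif overlaps the first and was added after the data were seen. It reads GGG, A or G, any base, A or T, 2 bases that are each C or T, and CC. This consensus was in 7 of the 11, against 4.51% of all. The Nfkbie promoter matches the consensus and not the first motif. A looser motif, GGG, any 5 bases and CC, which takes in every match of the first, was in 10 of the 11 and in 50.8% of all. Nfkb2 has 3 of the 11 promoters, each with 1 match to the first motif. The other 2 promoters of Nfkb2, beside the one shown, overlap and share 1 site, so the 11 promoters are not independent. Counted by gene, the first motif was found in 3 of the 7 members and the consensus in 5 of the 7. A match describes letters in the window and does not show that a factor binds there. In the sequences below, given 5′ to 3′ on the strand of the gene, capitals mark matches to the first motif or to the consensus. Nfkbia is the called member with an entry, Nfkbie has the lowest estimate of the 10, and the first promoter of Nfkb2 and that of Rel hold matches as well although those genes did not pass the test.
Nfkbia, chr12:55492598-55492897, minus strand: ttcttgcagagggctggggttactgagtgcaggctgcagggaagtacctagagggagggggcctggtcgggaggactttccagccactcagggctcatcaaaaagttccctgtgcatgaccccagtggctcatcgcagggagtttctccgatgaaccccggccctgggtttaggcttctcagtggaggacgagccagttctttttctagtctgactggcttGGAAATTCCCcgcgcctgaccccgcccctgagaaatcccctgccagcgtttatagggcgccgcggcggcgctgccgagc
Nfkbie, chr17:45555450-45555749, plus strand: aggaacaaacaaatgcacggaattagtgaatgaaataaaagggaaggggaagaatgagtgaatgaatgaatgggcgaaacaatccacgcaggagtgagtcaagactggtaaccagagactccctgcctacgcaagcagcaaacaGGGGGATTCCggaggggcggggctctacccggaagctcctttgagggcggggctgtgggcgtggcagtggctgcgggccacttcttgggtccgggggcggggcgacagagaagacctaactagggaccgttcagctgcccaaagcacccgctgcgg
Nfkb2, chr19:46304487-46304786, plus strand: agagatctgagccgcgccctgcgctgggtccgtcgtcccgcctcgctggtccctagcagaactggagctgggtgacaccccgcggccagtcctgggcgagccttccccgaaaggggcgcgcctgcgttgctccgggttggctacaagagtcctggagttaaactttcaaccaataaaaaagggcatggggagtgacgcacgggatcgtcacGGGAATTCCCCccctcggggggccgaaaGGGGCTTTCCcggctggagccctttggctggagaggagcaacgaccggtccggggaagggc
Rel, chr11:23770920-23771219, minus strand: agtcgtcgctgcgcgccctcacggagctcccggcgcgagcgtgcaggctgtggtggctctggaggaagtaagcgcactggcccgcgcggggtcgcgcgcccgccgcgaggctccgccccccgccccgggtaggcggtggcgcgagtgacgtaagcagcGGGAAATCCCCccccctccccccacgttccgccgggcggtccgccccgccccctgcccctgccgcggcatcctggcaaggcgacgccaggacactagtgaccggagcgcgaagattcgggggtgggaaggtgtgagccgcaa

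With the start of transcription at position 0, the Nfkbia match GGAAATTCCC begins at position -29. In Nfkbie, GGGGGATTCC begins at -106. The Nfkb2 promoter holds GGGAATTCCC at -39, an overlapping match at -38, and GGGGCTTTCC at -11. In Rel, GGGAAATCCC begins at -92 and an overlapping match at -91. No match to the first motif or to the consensus was found in the windows of Rela and Nfkbib.

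Total counts ranged over 41125059 to 43434292 in the kinsenoside libraries and 43054066 to 47461702 in the PAC-CM libraries. Counts of the members lay between 485, for Nfkbid in a kinsenoside library, and 16768, for Nfkbia in a PAC-CM library, and all 10 passed the filter on low counts. All 8 macrophage markers listed for the check were detected, with Lyz2 the most abundant at 12591 CPM on average (CPM is a count divided by its library total and multiplied by 1000000). Together the macrophage markers came to between 19976 and 22449 CPM in kinsenoside libraries and between 18268 and 20131 CPM in PAC-CM libraries, and their part in the results was not tested. Markers of 7 other cell types were far lower. The 10 acinar markers summed to between 5.01 and 7.48 CPM in kinsenoside libraries and between 6.39 and 7.02 CPM in PAC-CM libraries, with Ptf1a and Bhlha15 at 0 in every library. The 8 neutrophil markers summed to between 33.4 and 42.9 CPM in kinsenoside libraries and between 31.1 and 40.0 CPM in PAC-CM libraries, mostly S100a8, with Elane at 0. The markers of T, B, natural killer and dendritic cells and fibroblasts summed to at most 9.31 CPM per cell type in any library. In a bulk sample, fewer cells of a type and less RNA per cell cannot be told apart. Kinsenoside replicate 1 stood apart from the other libraries on the second principal component, at -39.3 against -6.13 to 19.7.

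Transcripts of Nfkbia and Nfkbiz, both encoding members of the I-kappa-B family, were lower with kinsenoside, and none of the 5 subunit genes passed the threshold. Nfkbia was at 230 ± 18.4 CPM with kinsenoside and 351 ± 13.7 CPM without it, and Nfkbiz at 40.9 ± 3.48 CPM with and 59.0 ± 1.95 CPM without (SD, n = 3 per group). In edgeR's quasi-likelihood test across 13901 genes with Benjamini-Hochberg adjustment, 2 of the 10 members passed an adjusted p of 0.05, both lower, where 0.302% of all tested genes were called lower, 0.209% higher and 0.511% in either direction. Under 15 alternative fits, which include leaving out each library, Nfkbia passed in 10 and Nfkbiz in 7. No member was called when any one library other than kinsenoside replicate 1 was left out. All 10 estimates lay below 0, with a median log2 fold change of -0.30, against 51.1% of estimates below 0 and a median of -0.01 over all tested genes. The members were chosen with earlier results of these data known, and their estimates share the same 6 libraries. The comparisons with all tested genes are therefore descriptions and not a test of the members as a set. The median was -0.48 over the 5 I-kappa-B genes, called inhibitors here by family, and -0.27 over the 5 subunits. Among the inhibitors so named, Nfkbiz and Nfkbid encode nuclear members that can help as well as hinder transcription. Whether inhibitors and subunits differed from each other was not tested.

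**Figure D1:**
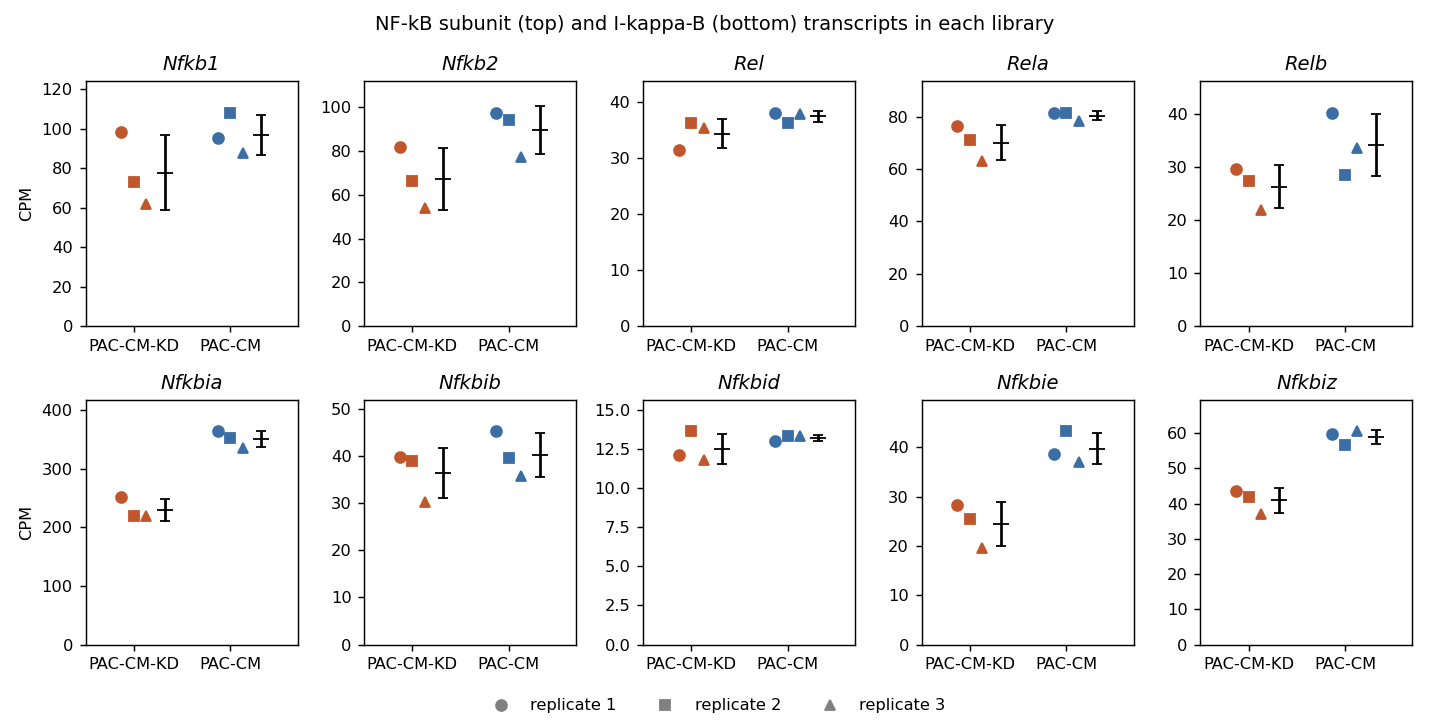
CPM of each member in every library, with kinsenoside (PAC-CM-KD) on the left of each panel and PAC-CM on the right. Marker shapes give the replicate, and bars give the mean and SD of 3 libraries. The groups stand clearly apart for Nfkbia, Nfkbie and Nfkbiz, while those of Nfkb1, Nfkb2, Relb, Nfkbib and Nfkbid overlap.

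Among the classical inhibitors, Nfkbia (ENSMUSG00000021025, GRCm38 chromosome 12, 55489410 to 55492647, minus strand) encodes I-kappa-B-alpha, the inhibitor that is resynthesised after NF-kB activation and ends the response. It had 252, 219 and 220 CPM in kinsenoside replicates 1 to 3, against 364, 353 and 336 CPM in PAC-CM replicates 1 to 3. All kinsenoside libraries lay below all PAC-CM libraries. The log2 fold change was -0.56 (SE 0.0734, 95% interval -0.73 to -0.40, edgeR adjusted p = 0.0263), a level 0.677 times that without kinsenoside. By p-value it ranked 23 among the 13901 tested genes. The direction held whichever library was left out, with log2 fold changes between -0.63 and -0.52, but the adjusted p then lay between 0.00734 and 0.120. Of these 6 fits it passed in the one without kinsenoside replicate 1.

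Nfkbie (ENSMUSG00000023947, chromosome 17, 45555703 to 45563169, plus strand) encodes I-kappa-B-epsilon, a later-acting feedback inhibitor. It had 28.2, 25.4 and 19.5 CPM in the kinsenoside libraries and 38.7, 43.2 and 37.1 CPM in the PAC-CM libraries. The groups did not overlap, and kinsenoside replicate 3 was the lowest of the 6. The log2 fold change of -0.66 (SE 0.133, 95% interval -0.96 to -0.35) was the lowest estimate of the 10 members, and it did not pass (edgeR adjusted p = 0.0866). DESeq2 called it (adjusted p = 8.69e-04), in a test that called 3.55% of all genes, and edgeR called it without kinsenoside replicate 1 (adjusted p = 0.0419), a fit that called 0.690% of all genes. Over 15 alternatives the adjusted p ranged from 8.69e-04 to 0.268.

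Nfkbib (ENSMUSG00000030595, chromosome 7, 28758251 to 28767512, minus strand) encodes I-kappa-B-beta, which is expressed more steadily than I-kappa-B-alpha. It had 39.8, 38.9 and 30.3 CPM in kinsenoside libraries and 45.2, 39.6 and 35.8 CPM in PAC-CM libraries. The groups overlapped, and the log2 fold change was -0.10 (95% interval -0.38 to 0.18, adjusted p = 0.757). The interval covers a fall to 0.769 times and a rise to 1.13 times the level without kinsenoside. Exons of Ccer2 on the opposite strand cover 14.5% of its exon length, and those of Sirt2 cover 1.94%. Ccer2 had 0 counts in all libraries. Sirt2 had 2585 to 3544 counts in kinsenoside libraries and 3677 to 4532 in PAC-CM libraries, more than the 1248 to 1729 and 1579 to 1945 counts of Nfkbib there. Its part in the counts of Nfkbib was not tested.

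Nfkbiz and Nfkbid encode nuclear members of the family, which bind NF-kB on chromatin and can help as well as hinder transcription. Nfkbiz (ENSMUSG00000035356, chromosome 16, 55811375 to 55838899, minus strand) encodes I-kappa-B-zeta, an inducible cofactor that mouse macrophages need for full induction of Il6 and Il12b. It had 43.7, 41.9 and 37.0 CPM in kinsenoside libraries, all below the 59.8, 56.8 and 60.5 CPM of PAC-CM libraries. Its log2 fold change was -0.48 (SE 0.0768, 95% interval -0.66 to -0.31, edgeR adjusted p = 0.0419). This call held under 7 of the 15 alternatives. It was lost with limma-voom (adjusted p = 0.0602) and with non-robust estimates (adjusted p = 0.0610), which called 0.281% and 0.259% of all genes and kept Nfkbia, and with the replicate number as a block (adjusted p = 0.0769). It was also lost without any one library other than kinsenoside replicate 1 (adjusted p between 0.0811 and 0.170).

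Nfkbid (ENSMUSG00000036931, chromosome 7, 30421732 to 30428746, plus strand) encodes I-kappa-B-NS, also an induced nuclear protein. It was the least abundant member by CPM, at 12.1, 13.6 and 11.8 CPM with kinsenoside and 13.0, 13.3 and 13.3 CPM without. The groups overlapped. An estimate of -0.03 on the log2 scale was obtained (95% interval -0.24 to 0.18, adjusted p = 0.910), so the interval reaches down to 0.846 times and up to 1.13 times the level without kinsenoside.

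**Figure D2:**
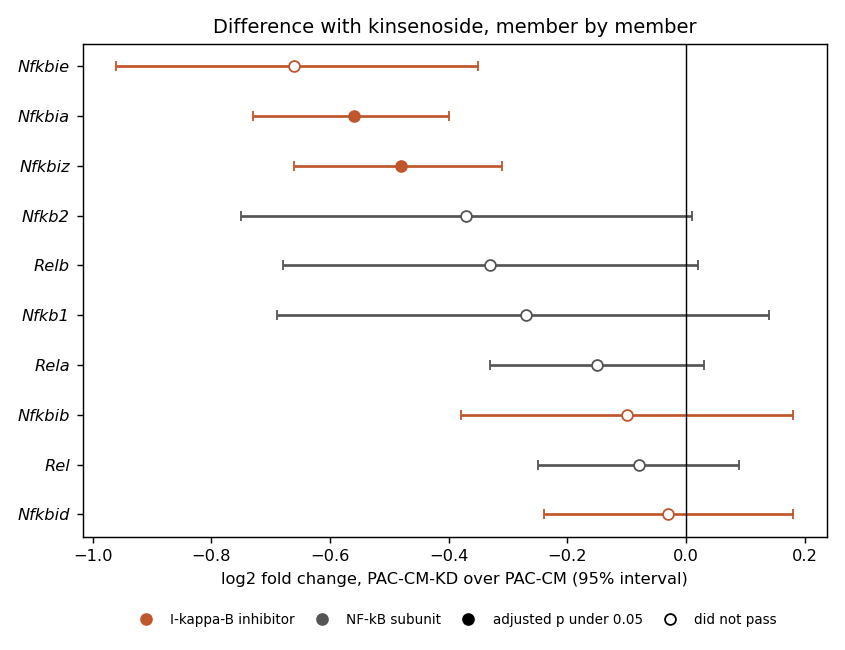
Log2 fold change of each member, kinsenoside over PAC-CM, with its 95% interval from the edgeR fit. Filled points passed an adjusted p of 0.05. Intervals of Nfkbie, Nfkbia and Nfkbiz lie wholly below 0, and those of the other 7 members include 0.

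Among the subunits, Rela (ENSMUSG00000024927, chromosome 19, 5637483 to 5648130, plus strand) encodes p65, the subunit that carries most of the activating function of the classical dimer. It had 76.5, 71.0 and 63.1 CPM in kinsenoside libraries and 81.5, 81.5 and 78.5 CPM in PAC-CM libraries. In CPM all kinsenoside libraries lay below all PAC-CM libraries, and after scaling by edgeR's TMM factors the groups overlapped. The log2 fold change was -0.15 (95% interval -0.33 to 0.03, adjusted p = 0.412), and -0.09 without kinsenoside replicate 3 (adjusted p = 0.677). Rel (ENSMUSG00000020275, chromosome 11, 23736847 to 23770970, minus strand), which encodes c-Rel, had 31.4, 36.2 and 35.4 CPM with kinsenoside and 38.0, 36.2 and 37.9 CPM without. It had a log2 fold change of -0.08 (95% interval -0.25 to 0.09, adjusted p = 0.682), and one of -0.02 without kinsenoside replicate 1 (adjusted p = 0.927). The gap between the groups of Rel in CPM was smaller than the last printed digit, and after TMM scaling there was none.

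Counted in CPM, 5 of the 10 members had all kinsenoside libraries below all PAC-CM libraries (Nfkbia, Nfkbie, Nfkbiz, Rela and Rel), against 15.7% of all tested genes. After TMM scaling these were 3 of 10, Nfkbia, Nfkbie and Nfkbiz, against 11.4% of all tested genes. The same 3 had an unadjusted p under 0.05, against 8.19% of tested genes lower at that level.

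Nfkb1 and Nfkb2 encode precursors that are processed to the DNA-binding subunits p50 and p52 and that, unprocessed, hold other subunits in the cytosol as an I-kappa-B does. Nfkb1 (ENSMUSG00000028163, chromosome 3, 135584655 to 135691547, minus strand) had 98.5, 73.1 and 61.9 CPM in kinsenoside libraries and 95.2, 108 and 87.9 CPM in PAC-CM libraries. Kinsenoside replicate 1 lay within the PAC-CM range, while replicates 2 and 3 lay below it. The log2 fold change was -0.27 (95% interval -0.69 to 0.14, adjusted p = 0.524). Without kinsenoside replicate 1 the estimate was -0.48 (adjusted p = 0.102), and without kinsenoside replicate 3 it was -0.14 (adjusted p = 0.764).

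Nfkb2 (ENSMUSG00000025225, chromosome 19, 46304320 to 46312385, plus strand) had 81.8, 66.2 and 53.8 CPM in kinsenoside libraries and 97.4, 94.3 and 77.2 CPM in PAC-CM libraries. Only kinsenoside replicate 1 reached into the PAC-CM range. The log2 fold change was -0.37 (95% interval -0.75 to 0.01, edgeR adjusted p = 0.340), -0.54 without kinsenoside replicate 1 (adjusted p = 0.117) and -0.24 without kinsenoside replicate 3 (adjusted p = 0.519). Exons of genes on the opposite strand, Psd and the long noncoding AC114539.1, cover 6.52% and 11.6% of its exon length, and each had at most 129 counts in a library.

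Relb (ENSMUSG00000002983, chromosome 7, 19606217 to 19629438, minus strand) encodes RelB, the partner of p52 in the alternative NF-kB pathway. It had 29.7, 27.4 and 21.8 CPM with kinsenoside and 40.2, 28.5 and 33.5 CPM without. PAC-CM replicate 2 lay within the kinsenoside range. Relb had a log2 fold change of -0.33 (95% interval -0.68 to 0.02, edgeR adjusted p = 0.358). Its estimate was -0.20 without PAC-CM replicate 1 (adjusted p = 0.674) and -0.21 without kinsenoside replicate 3 (adjusted p = 0.589).

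Kinsenoside replicate 1 was the highest of its group for 8 of the 10 members and replicate 3 the lowest for 8 of the 10, against 36.0% and 34.9% of all tested genes after TMM scaling. The exceptions were Rel, lowest in replicate 1 and highest in replicate 2, Nfkbid, highest in replicate 2, and Nfkbia, lowest in replicate 2. The coefficient of variation among kinsenoside libraries was 24.1% for Nfkb1 and 20.9% for Nfkb2, against 10.5% and 12.2% among PAC-CM libraries. It was 7.99% for Nfkbia with kinsenoside and 3.91% without. On the TMM-scaled log2 scale, relative to each gene's mean over 6 libraries, the median of the 10 members was -0.02, -0.15 and -0.36 in kinsenoside replicates 1 to 3 and 0.24, 0.15 and 0.05 in PAC-CM replicates 1 to 3. For the 5 inhibitors alone these medians were -0.11, -0.21 and -0.34 with kinsenoside and 0.26, 0.19 and 0.22 without.

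**Figure D3:**
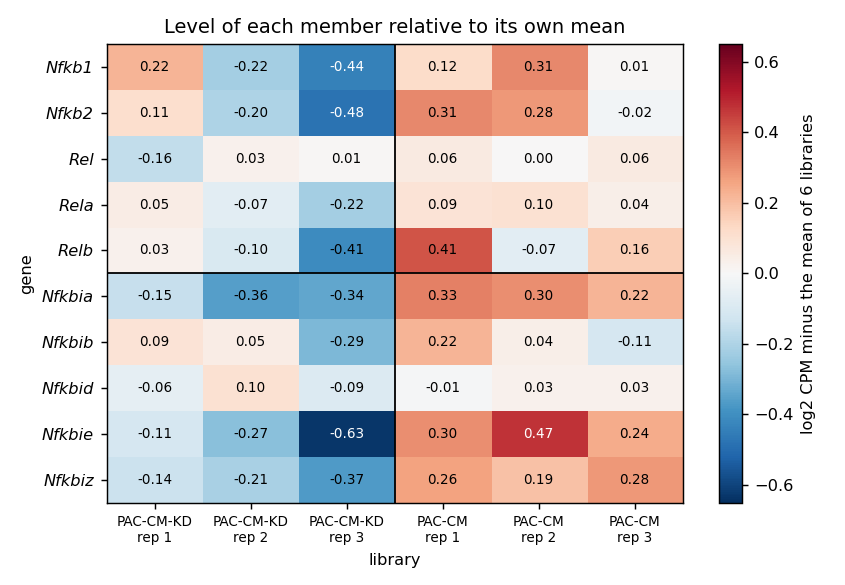
TMM-scaled log2 CPM of each member minus its mean over the 6 libraries, with kinsenoside libraries left of the vertical line and subunits above the horizontal line. Rows of Nfkbia, Nfkbie and Nfkbiz are below 0 in every kinsenoside library and above 0 in every PAC-CM library, and the row of Nfkbie reaches -0.63 in kinsenoside replicate 3.

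Likeness between profiles was measured as the root mean square difference of such centred log2 values over the 6 libraries, as a description. Between members, the smallest differences were 0.0749 between Rel and Nfkbid, 0.0837 between Nfkbia and Nfkbiz and 0.0941 between Nfkb1 and Nfkb2. The largest was 0.369, between Rel and Nfkbie. Profiles that vary little come out close by this measure, as those of Rel (-0.16 to 0.06) and Nfkbid (-0.09 to 0.10) do. Among 5782 tested genes averaging 20 CPM or more, the 4 nearest to Nfkbia were Sla, an adaptor protein of Src-family signalling (0.0585), Itpkb, an inositol phosphate kinase (0.0601), Ezr, the membrane-cytoskeleton linker ezrin (0.0661), and AI504432 (0.0713). The 4 nearest to Nfkbiz were A630033H20Rik (0.0439), Xkr8, a lipid scramblase of the plasma membrane (0.0447), Atp10a, a lipid flippase (0.0505), and Il1b, the cytokine interleukin-1 beta (0.0649). All 8 had estimates below 0, which closeness to a called member entails.

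Levels of different genes were compared as CPM per kilobase of annotated exons. Nfkbia was by far the most abundant, at 143 ± 11.4 with kinsenoside and 218 ± 8.53 without (SD, n = 3 per group), followed by Rela at 22.8 ± 2.21 with and 26.2 ± 0.566 without. Nfkbib was at 16.8 ± 2.41 with and 18.5 ± 2.18 without kinsenoside, and Nfkb2 at 14.7 ± 3.07 with and 19.6 ± 2.38 without. The library ranges of Nfkbib and Nfkb2 overlapped in both groups, so their order is not settled. In kinsenoside libraries Nfkbiz (8.15 ± 0.694), Nfkbie (8.0 ± 1.47), Relb (6.77 ± 1.05), Nfkb1 (6.45 ± 1.56) and Nfkbid (5.33 ± 0.410) came next, each overlapping its neighbour, and Rel was last at 4.60 ± 0.340. In PAC-CM libraries Nfkbie (13.0 ± 1.04) and Nfkbiz (11.8 ± 0.389) did not overlap each other and lay above Relb (8.78 ± 1.51) and Nfkb1 (8.04 ± 0.845), which overlapped. Nfkbid (5.62 ± 0.0781) and Rel (5.01 ± 0.133) were lowest there too, without overlap.

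The places of Nfkb1 and Relb in this order depend on the length used. The annotated exons of Nfkb1 cover 12061 bases, and its longest protein-coding transcript 4117 bases. Per kilobase of that transcript Nfkb1 was at 18.9 ± 4.56 with kinsenoside and 23.6 ± 2.47 without, after Nfkbia and Rela in both groups by its mean. On that scale Relb was at 11.9 ± 1.85 with kinsenoside and 15.4 ± 2.65 without. Its mean then lay above those of Nfkbiz (9.94 ± 0.846 with and 14.3 ± 0.474 without) in both groups, and above that of Nfkbie (10.0 ± 1.84 with and 16.3 ± 1.3 without) in the kinsenoside group. Nfkbia stayed first, Rela second and Rel last by either length.

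**Figure D4:**
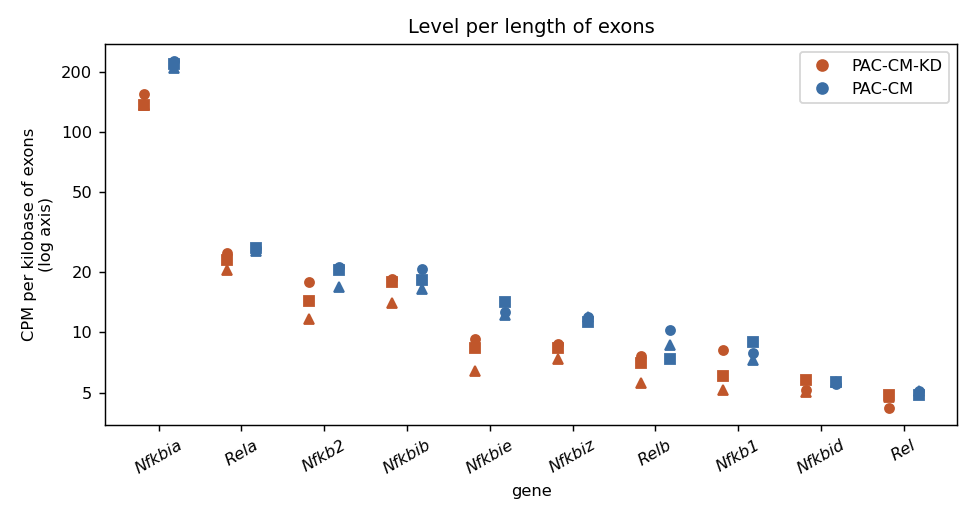
Level of each member in CPM per kilobase of annotated exons, on a log axis, in each library with kinsenoside (left of each pair) and PAC-CM alone (right). Nfkbia lies between 136 and 226 and every other member far below it in all libraries.

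Nfkbia dominated the inhibitors, at 78.9% ± 1.78 of their summed per-length level with kinsenoside and 81.7% ± 0.136 without. That sum was 198, 177 and 170 in kinsenoside libraries and 277, 269 and 255 in PAC-CM libraries. Without Nfkbia, the sum of the other 4 inhibitors was 41.5, 40.4 and 32.8 with kinsenoside and 51.0, 49.4 and 46.4 without. The sum of the 5 subunits was 62.8, 55.5 and 47.7 with kinsenoside and 71.1, 68.3 and 63.4 without. All 3 sums were lower in every kinsenoside library than in any PAC-CM library. After TMM scaling the subunit sums overlapped, at 63.7, 56.0 and 48.8 with kinsenoside and 69.8, 67.4 and 62.4 without, and the inhibitor sums did not. As a mean before TMM scaling, the inhibitor sum with kinsenoside was 0.679 times that without, and the subunit sum 0.819 times. With TMM scaling the differences were smaller. The mean inhibitor sum was then 184 with kinsenoside and 263 without, and the mean subunit sum 56.2 with and 66.5 without. The ratio of Nfkbia to Rela was 6.28, 5.89 and 6.67 in kinsenoside libraries, against 8.52, 8.27 and 8.18 in PAC-CM libraries. These sums and ratios are descriptions of the chosen members, with no test.

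Other genes of the pathway were counted from lists chosen by role. Of 12 genes of the I-kappa-B kinase (IKK) complex, its upstream and related kinases and their adaptors, none passed, with 4 estimates below 0 and a median of 0.07. At an unadjusted p under 0.05, 1 of them was lower and 1 higher, against 8.19% and 6.74% of all tested genes. DESeq2 called none. The most abundant, Ikbke, an IKK-related kinase, was at 144 ± 7.64 CPM with kinsenoside and 179 ± 15.7 CPM without (log2 fold change -0.26, edgeR adjusted p = 0.197). Tab2, a partner of the TAK1 kinase, was at 132 ± 3.36 CPM with and 128 ± 23.2 CPM without (0.09, adjusted p = 0.793).

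None of 8 genes of the ubiquitin ligase that marks I-kappa-B proteins passed (median 0.05), and DESeq2 called none. At an unadjusted p under 0.05, 0 were lower and 2 higher, against 8.19% and 6.74% of all tested genes. Fbxw11, a substrate receptor of that ligase, was at 98.1 ± 3.46 CPM with kinsenoside and 110 ± 2.31 CPM without (log2 fold change -0.13, adjusted p = 0.387), and Ube2d3, a ubiquitin-conjugating enzyme, at 254 ± 31.0 CPM with and 264 ± 56.3 CPM without (-0.01, adjusted p = 0.984).

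None of 14 genes of ubiquitin chain assembly and feedback passed (median -0.07), and DESeq2 called none. At an unadjusted p under 0.05, 3 were lower and 0 higher, against 8.19% and 6.74% of all tested genes. Tnip1, a partner of the feedback inhibitor A20, was at 248 ± 10.3 CPM with kinsenoside and 292 ± 25.4 CPM without (-0.19, adjusted p = 0.300). Tax1bp1, an adaptor of A20, was at 773 ± 55.5 CPM with and 751 ± 37.6 CPM without (0.09, adjusted p = 0.645).

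Of 16 nuclear cofactors none passed (median -0.01), and DESeq2 called none. At an unadjusted p under 0.05, 0 were lower and 1 higher, against 8.19% and 6.74% of all tested genes. Hdac1, a histone deacetylase, was at 119 ± 4.19 CPM with kinsenoside and 105 ± 6.76 CPM without (0.23, adjusted p = 0.203), and Ep300, a histone acetyltransferase, at 75.3 ± 6.10 CPM with and 81.5 ± 6.69 CPM without (-0.07, adjusted p = 0.768).

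Of 43 tested NF-kB target genes, 4 were called lower and none higher, where 0.302% of all tested genes were called lower and 0.209% higher. Of the 43 estimates 24 lay below 0, with a median of -0.07. The 4 were Irf1, an interferon-regulated transcription factor (-0.81, edgeR adjusted p = 0.00248), Cxcl10, an interferon-induced chemokine (-0.92, adjusted p = 0.00482), and the cytokine genes Il1b (-0.60, adjusted p = 0.0152) and Il1a (-0.82, adjusted p = 0.0403). At an unadjusted p under 0.05, 10 were lower and 2 higher, against 8.19% and 6.74% of all tested genes. DESeq2 called 11, of which 9 were lower and 2 higher (Ccl3 and Ccl4, both chemokine genes and named after their values were seen), in a test that called 3.55% of all genes. Irf1 and Cxcl10 passed under all 15 alternatives. Il1b passed under 11 (adjusted p up to 0.0824) and Il1a under 9 (adjusted p up to 0.157), and both missed the threshold without kinsenoside replicate 2 and without any one PAC-CM library. Irf1 and Cxcl10 respond to interferons as well as to NF-kB, and all 4 falls were known from an earlier analysis of these libraries when the list was made.

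Of 6 tested genes that need I-kappa-B-zeta in mouse macrophages, none passed (none at an unadjusted p under 0.05; none by DESeq2), and the median was 0.07. Lcn2, which encodes lipocalin-2, was at 241 ± 18.9 CPM with kinsenoside and 278 ± 32.7 CPM without (-0.16, 95% interval -0.39 to 0.06). Ebi3, a subunit of interleukin-27, was at 104 ± 12.6 CPM with and 98.6 ± 9.52 CPM without (0.13, 95% interval -0.11 to 0.37). The 95% intervals of all 6 include 0. Those of Csf3 (-0.21 to 2.06), Il12b (-0.29 to 1.49) and Edn1 (-1.32 to 0.75) are wide. The lack of calls therefore does not show that these genes were unchanged. Il6, Il12b, Csf3, Ebi3 and Lcn2 are also in the list of NF-kB target genes.

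**Figure D5:**
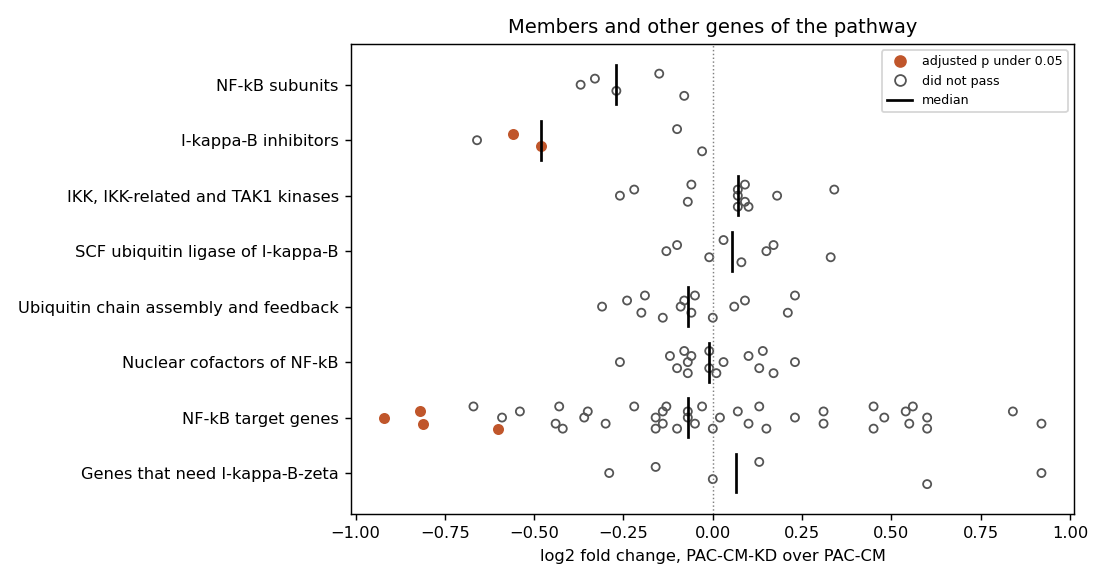
Log2 fold change, kinsenoside over PAC-CM, of the members (top 2 rows) and of each tested gene in 6 lists of other pathway genes, with filled points for an adjusted p under 0.05 and a bar at each median. Filled points appear in the rows of inhibitors and of NF-kB target genes, and medians of the 6 lists lie between -0.07 and 0.07. The lists share genes: Il6, Il12b, Csf3, Ebi3, Lcn2 and Tnfaip3 are each drawn in 2 rows.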

How the data were processed

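Total RNA of each sample (1 µg, mRNA-enriched) was sequenced as 150-nucleotide pairs, per the labels' protocols. The counts were used as deposited, whole numbers for each Ensembl gene and library. Tools named in the submitters' processing notes, without roles, include STAR, StringTie 1.3.1c and DESeq2 1.16.1, with GRCm38 as the build. The counting tool and its use of strand are not given in the sources used here. In the counts 3 occurs more often than 2 (6202 against 5128 values), so they may be rounded estimates.

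Counts were tested with edgeR 4.0.16 in R 4.3.3: filterByExpr, TMM, robust quasi-likelihood fits on the group, two-sided, Benjamini-Hochberg adjustment over 13901 genes. Standard errors were taken as |log2 fold change| over the root of F. Alternatives used DESeq2 1.42.0, limma-voom 3.58.1, other scalings and filters, the replicate block and leaving out each library. Log2 CPM has a prior count of 2. Lengths and coordinates are from GENCODE M21. The edgeR script was tested on simulated data. Members and lists were chosen with earlier results of these data known. Named genes are all members, up to 4 called genes per list or its most abundant genes up to 2 in all, and the 4 nearest profiles of each called member. The NF-kB consensus motif and the protein-coding transcript length were added after seeing the data.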

Additional observations from a re-analysis of the deposited data

How the results depend on the processing

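Over 15 alternative fits and libraries left out, the estimates of 8 members stayed below 0. Those of Nfkbib and Nfkbid lay between -0.17 and 0.01 and between -0.09 and 0.00 with 1 library left out, the upper values without kinsenoside replicate 3; the cause was not tested. The number of members called was 2 in the edgeR fit, 1 with limma-voom, with the replicate block or with non-robust estimates, 3 with DESeq2, and 0 at an adjusted p under 0.01. With 1 library left out it lay between 0 and 3, and it was 0 without any one library other than kinsenoside replicate 1. Without that library it was 3, where 0.690% of all genes were called. Over all genes, 71 were called in the edgeR fit, 494 with DESeq2, 39 with limma-voom, 42 with the replicate block, 36 with non-robust estimates and 11 at an adjusted p under 0.01, and between 13 and 98 with 1 library left out. The 42 calls with the block include Nfkbia but not Nfkbiz (adjusted p = 0.0769). The labels do not say whether a replicate number marks a shared culture or animal. Across genes, deviations from the group means correlated at 0.00874, -0.101 and 0.135 between libraries of the same number. Between libraries of different numbers the correlations lay between -0.173 and 0.164. With 3 libraries per group, these values cannot decide whether the samples are paired. Of NF-kB target genes 4 were called, all lower, and 11 with DESeq2 (9 lower, 2 higher). With 1 library left out, between 2 and 5 were called, of which between 2 and 5 were lower and at most 1 higher (Ccl3 without kinsenoside replicate 3, Tnfaip3 without PAC-CM replicate 2). In the list of ubiquitin chain assembly and feedback between 0 and 1 were called with 1 library left out, the call being Tnfaip3 without PAC-CM replicate 2. Leaving out a library leaves a group with 2 samples, so fewer samples enter the fit. Median shifts of all genes under the scalings tried lay between -0.05 and 0.00.

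Per-length levels depend on the length used. With the longest single transcript, the subunit sum was 74.7 with kinsenoside and 91.7 without, and the ratio of Nfkbia to Rela 5.66 and 7.51. With the longest protein-coding transcript these were 78.7 and 96.9, and 5.66 and 7.51, and the inhibitor sum without kinsenoside was 279. TMM scaling moved none of these sums by more than 1 SD. No member was near the depth limit, since the lowest count was 485.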
